A study of Mus musculus with 4 samples.

Results

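The tuft cell genes are 10 genes known from the rare chemosensory cells of the gut epithelium: Pou2f3, Gfi1b, Trpm5, Sucnr1, Ptgs1, Alox5, Alox5ap, Il25, Avil and Dclk1. They were chosen by name, as symbols of the mouse genome build mm9, and all 10 were found among 21330 genes with exon blocks. An exon block is a stretch of exonic sequence in the table of RefSeq exons against which the authors matched their reads. Counted were uniquely placed reads inside these blocks, in RPKM (reads per kilobase of exonic sequence and per 1000000 uniquely placed reads). The question was how the genes compared between small intestine and colon under each of 2 library protocols.

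The 4 libraries were made from total tissue of C57BL/6 mice aged 9 to 10 weeks, from small intestine (by the study's methods, jejunum) and from colon (distal colon). The labels give no treatment and no altered allele. The cDNA fragmented libraries, 1 from each tissue, came from polyadenylated RNA that was reverse transcribed at full length, amplified and then fragmented. In the rRNA-depleted libraries, again 1 from each tissue, RNA itself was fragmented and the strand was kept. Their labels give depletion of ribosomal RNA, whereas the study's methods describe enrichment of polyadenylated RNA for its RNA fragmentation kit. The libraries used here had 36419942 (small intestine) and 37466674 (colon) total reads, matched at 35 colors. The paper gives its RNA fragmented libraries many more and longer reads, so its description may not apply to these. With 1 library per tissue and protocol there was no replicate, so no test was run, and all intervals are 95% intervals that cover counting error only. By the study's account both tissues came from the same individuals, without saying which mice went into which library. Total tissue holds every cell type of the gut wall, so fewer tuft cells and less RNA per tuft cell cannot be told apart.

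Uniquely placed reads numbered 22484041 (small intestine) and 24798934 (colon) by cDNA fragmentation, and 2035386 (small intestine) and 3478387 (colon) after rRNA depletion. The libraries differed in more than tissue. Xist, transcribed from the inactive X chromosome, had 1751 reads in the cDNA fragmented small intestine library and 5 to 31 in the others, while 4 Y-linked genes summed to 19 reads there and to 360 to 3433 in the others. For the cDNA fragmented pair these sex-linked counts go against tissues of the same mice. Of 6 pancreatic acinar genes, 7782 reads lay in the cDNA fragmented colon library and 5353 in the rRNA-depleted small intestine library, against 30 and 33 in the remaining 2. Tissue therefore moved with sex-linked genes in the cDNA fragmented pair and with acinar genes, in opposite directions, in both pairs. Their part in the results was not tested, and leaving out a library leaves no tissue comparison in its protocol.

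Tuft cells carry an apical tuft of microvilli and sense luminal chemicals through a cascade like that of taste cells, which ends in the opening of the cation channel Trpm5. The transcription factor Pou2f3 is required for them, and they are a source of the cytokine Il25, which acts on type 2 lymphoid cells, and of prostaglandins and leukotrienes. They are few among epithelial cells, so their transcripts are diluted in RNA of total tissue.

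Sequences are given for the 4 genes whose reads are followed along the gene below, so that the exons named there can be seen, read from the mm9 genome on the strand of the gene. For Trpm5, Ptgs1 and Alox5 the block with the most cDNA fragmented reads is shown among blocks that are coding throughout and at most 300 bases long. Blocks with more reads, such as the last of each gene, are partly untranslated. For Dclk1 the last coding bases of 1 annotated transcript without and 1 with the kinase are shown, with the stop codon in capitals. Other annotated transcripts end their coding part elsewhere in block 20. No base is capitalised in the others.
Trpm5 exon block 21, chr7:150260327-150260508, minus strand: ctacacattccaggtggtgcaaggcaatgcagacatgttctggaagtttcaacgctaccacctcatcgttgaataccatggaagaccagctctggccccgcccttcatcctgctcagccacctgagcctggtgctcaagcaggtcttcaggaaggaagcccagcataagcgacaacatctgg
Ptgs1 exon block 9, chr2:36100564-36100850, plus strand: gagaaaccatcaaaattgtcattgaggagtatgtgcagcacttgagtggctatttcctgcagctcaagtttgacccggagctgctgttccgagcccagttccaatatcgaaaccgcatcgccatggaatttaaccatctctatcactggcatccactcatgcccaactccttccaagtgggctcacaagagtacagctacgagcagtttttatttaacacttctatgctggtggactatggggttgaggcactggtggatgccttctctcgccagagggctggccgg
Alox5 exon block 6, chr6:116373161-116373333, minus strand: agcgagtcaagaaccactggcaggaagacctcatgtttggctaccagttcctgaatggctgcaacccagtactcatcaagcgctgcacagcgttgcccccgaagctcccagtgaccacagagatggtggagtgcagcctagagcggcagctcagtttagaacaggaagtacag
Dclk1 doublecortin-only transcript, end of its coding part in exon block 8, chr3:55270495-55270551, plus strand: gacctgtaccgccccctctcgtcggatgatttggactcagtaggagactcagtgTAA
Dclk1 transcript with the kinase, end of its coding part in exon block 20, chr3:55337492-55337656, plus strand: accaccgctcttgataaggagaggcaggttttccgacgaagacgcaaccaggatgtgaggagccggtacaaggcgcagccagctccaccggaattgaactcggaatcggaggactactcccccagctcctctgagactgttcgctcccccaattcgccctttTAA

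Of the 10 genes, 9 had reads in all 4 libraries and Il25 in 1 library only. Levels spanned from 0.269 RPKM for Gfi1b to 15.6 RPKM for Ptgs1 among the genes detected in cDNA fragmented small intestine. In that library the order was Ptgs1, Alox5ap, Trpm5, Avil, Alox5, Sucnr1, Dclk1, Pou2f3 and Gfi1b. The intervals of neighbours in this order were apart for the first 4 genes, and from Avil downward each overlapped that of the next. In cDNA fragmented colon Alox5ap (15.8 RPKM) and Ptgs1 (14.2 RPKM) led with overlapping intervals, followed by Alox5, Avil and Trpm5, while Sucnr1, Dclk1, Gfi1b and Pou2f3 were each below 0.72 RPKM. In both rRNA-depleted libraries Ptgs1 came first, and Trpm5 and Alox5ap followed with overlapping intervals.

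**Figure D1:**
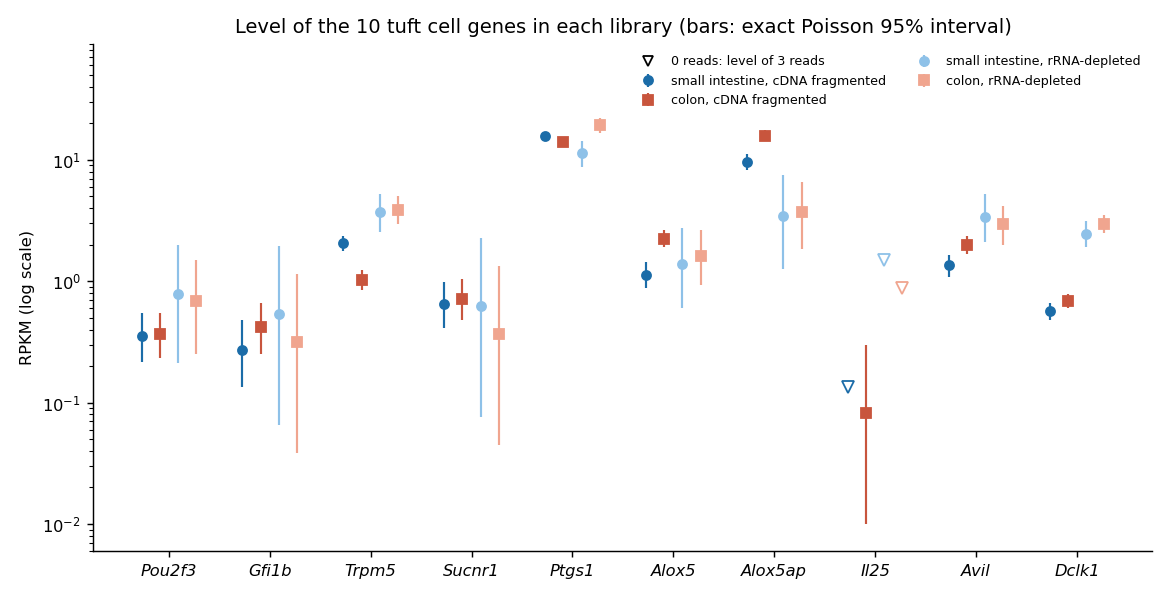
Level of each tuft cell gene in the 4 libraries, in RPKM on a log scale; points are libraries, bars are exact Poisson 95% intervals and open triangles mark the level of 3 reads where no read was found. Ptgs1 was above 11 RPKM in every library, while Pou2f3 and Gfi1b stayed below 1 RPKM.

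Most tuft cell genes had point ratios within 2-fold between the tissues, but many intervals reached past 2-fold. Among genes with at least 10 reads over both libraries, few intervals stayed inside 2-fold in both directions. These were those of Dclk1, Ptgs1, Alox5ap and Avil by cDNA fragmentation, and of Dclk1 and Trpm5 in the rRNA-depleted pair. In the cDNA fragmented pair, 9 of the 10 genes had at least 10 reads over both libraries, and only Trpm5 was at least 2-fold higher in small intestine, a call made for 9.9% of the 15152 genes with as many reads. That call lay at the threshold, at 2.01-fold, and was lost with start points in place of reads (log2 ratio -0.88), with the deeper library thinned to the shallower (-0.94) and on coding bases only (-0.97). None was at least 2-fold higher in colon, against 27.3% of all genes. The interval of the ratio lay wholly on the side of small intestine for Trpm5 and Ptgs1 (23.7% of all genes) and wholly on the side of colon for Alox5, Alox5ap and Avil (52.3%). In the rRNA-depleted pair, 7 genes had enough reads and none was 2-fold higher in either tissue, against 12.8% of 13289 genes for small intestine and 29.0% for colon. There the interval lay on the side of colon for Ptgs1 alone (40.9% of all genes) and on the side of small intestine for none (20.1%). Whether an interval excludes 1 depends on read number, and in both pairs the shares of all genes were not matched for it. The 7 genes had 10 to 259 reads, a range that held 8987 of the 13289 genes. By the study's stricter rule, a 3-fold difference with a penalty of 1 RPKM added to the divisor, no tuft cell gene was called in either pair. A gene below 3 RPKM in both tissues cannot pass that rule, whatever its ratio. By cDNA fragmentation this held for Trpm5, Alox5, Avil, Sucnr1, Dclk1, Gfi1b and Pou2f3. Among the genes with enough rRNA-depleted reads it held for Dclk1, Alox5 and Pou2f3. For these genes the rule could give no call. That rule called 2.98% and 3.56% of all genes for small intestine and colon in the cDNA fragmented pair, and 4.15% and 7.37% in the rRNA-depleted pair.

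The whole table was shifted toward colon, so each ratio was also read against the median gene. That gene was 1.33-fold higher in colon by cDNA fragmentation (log2 ratio 0.41, quartiles -0.23 and 1.07) and 1.34-fold higher in the rRNA-depleted pair (log2 ratio 0.42, quartiles -0.36 and 1.13). The tuft cell genes that passed the read minimum had a median log2 ratio (colon over small intestine) of 0.29 (9 genes) and 0.10 (7 genes), between the quartiles of all genes in both pairs. With median-of-ratios size factors, which centre the table on the median gene with at least 10 reads in each library, these medians turned to -0.07 and -0.18. Under that scaling the shares of all genes at least 2-fold higher in small intestine and colon were 14.9% and 18% by cDNA fragmentation, and 17.6% and 21.2% in the rRNA-depleted pair. The members called by interval stayed the same with size factors except Avil, whose interval then included 1.

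**Figure D2:**
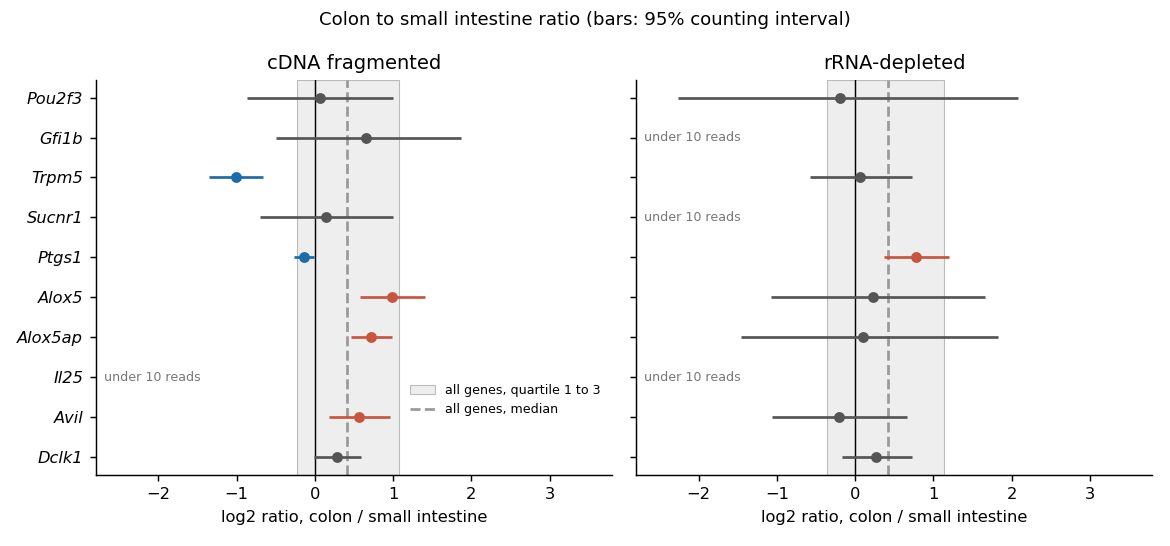
Log2 ratio (colon over small intestine) for each tuft cell gene in the cDNA fragmented (left) and rRNA-depleted (right) pair, with 95% counting intervals; the shaded band spans the quartiles of all genes and the dashed line is their median. Trpm5 lay at -1.01 on the left and at 0.07 on the right, and blue and red points mark intervals wholly below and above 0.

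Pou2f3 encodes the POU-domain factor that specifies tuft cells (ENSMUSG00000032015, chromosome 9, 42932022 to 43013838). It had 20 reads in cDNA fragmented small intestine, 23 in cDNA fragmented colon, and 4 and 6 in the rRNA-depleted libraries of the same order. These were 0.353, 0.368, 0.779 and 0.684 RPKM. The colon to small intestine ratio was 1.04 (0.548 to 2.0) by cDNA fragmentation and 0.878 (0.208 to 4.23) in the rRNA-depleted pair. No tissue difference was detectable at this depth, and the first interval spans from nearly 2-fold in one direction to 2-fold in the other.

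Gfi1b, a zinc finger repressor also known from the erythroid and megakaryocyte lineages (ENSMUSG00000026815, chromosome 2, 28464971 to 28477502), was lower still. It had 11, 19, 2 and 2 reads in the same order of libraries, or 0.269, 0.421, 0.540 and 0.316 RPKM. The cDNA fragmented ratio was 1.57 in favour of colon with an interval of 0.708 to 3.64, and the rRNA-depleted reads were too few for a comparison. Of 6 megakaryocyte and platelet genes 3 had enough cDNA fragmented reads, and 2 of these were at least 2-fold higher in colon, beside 27.3% of all genes. Their summed level, 12.6 RPKM in small intestine and 65.9 RPKM in colon, was nearly all from Pf4, a chemokine of platelet granules, with 12.1 and 65.0 RPKM and a level 5.37-fold higher in colon (4.54 to 6.39). Itga2b, a platelet integrin subunit, had 1 and 16 cDNA fragmented reads and a ratio of 14.5 (2.25 to 608). In the rRNA-depleted pair none of the 6 genes had enough reads, and 5 had 0 reads in small intestine. The 6 genes summed there to 0.18 RPKM in small intestine and 2.93 RPKM in colon. Their part in the Gfi1b reads was not tested.

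Trpm5, the calcium-activated cation channel at the end of the taste cascade (ENSMUSG00000009246, chromosome 7, 150257434 to 150280547, 25 exon blocks), was the member past 2-fold between the tissues by cDNA fragmentation, though Alox5 was nearly as far the other way. It had 202 reads in cDNA fragmented small intestine and 111 in cDNA fragmented colon, or 2.05 RPKM (1.78 to 2.35) and 1.02 RPKM (0.840 to 1.23). Small intestine was 2.01-fold higher (1.58 to 2.55), against a median gene that was higher in colon, and stayed on that side, though under 2-fold, in the 3 recounts named above. After rRNA depletion it had 33 and 59 reads, or 3.70 RPKM (2.55 to 5.19) and 3.87 RPKM (2.95 to 4.99), a colon to small intestine ratio of 1.05 (0.672 to 1.65). The intervals of the 2 ratios did not overlap.

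The Trpm5 difference was unevenly spread along the gene. In cDNA fragmented small intestine 187 of 202 reads lay downstream of the midpoint of the exonic bases, 92.6% (Wilson interval 88.1% to 95.4%), and in cDNA fragmented colon 88 of 111, 79.3% (70.8% to 85.8%). Over all genes of at least 2000 exonic bases with at least 20 reads, the median share was 69.7% and 71.3% in these libraries. In the rRNA-depleted libraries the Trpm5 shares were 48.5% and 55.9%, beside medians of 52.4% and 51.1%. Downstream of the midpoint, cDNA fragmented small intestine was 2.34-fold higher (1.81 to 3.06). Upstream of it 15 small intestine reads stood against 23 colon reads, a ratio of 1.39 toward colon (0.695 to 2.86), so these intervals lay apart. Block 21, whose sequence is given above, had 31 reads in cDNA fragmented small intestine, 11 in cDNA fragmented colon, 0 in rRNA-depleted small intestine and 8 in rRNA-depleted colon. All rRNA-depleted Trpm5 reads, 33 and 59, lay on the strand of the gene.

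Sucnr1, the receptor through which tuft cells sense succinate (ENSMUSG00000027762, chromosome 3, 59885791 to 59891488), had 23 and 28 reads in cDNA fragmented small intestine and colon and 2 in each rRNA-depleted library. The cDNA fragmented levels were 0.651 RPKM (0.413 to 0.977) and 0.719 RPKM (0.478 to 1.04), and their ratio was 1.10 (0.613 to 2.01). A tissue difference up to 2.01-fold was not excluded by the counts. The rRNA-depleted counts did not reach 10 reads and carry no comparison.

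Ptgs1 encodes cyclooxygenase 1, which makes the prostaglandin precursor from arachidonic acid, and is not confined to tuft cells (ENSMUSG00000047250, chromosome 2, 36085946 to 36107789). It had 1003 reads in cDNA fragmented small intestine and 1005 in cDNA fragmented colon, or 15.6 RPKM (14.6 to 16.6) and 14.2 RPKM (13.3 to 15.1). In the rRNA-depleted libraries it had 66 and 193 reads, or 11.3 RPKM (8.76 to 14.4) and 19.4 RPKM (16.7 to 22.3). The ratio of colon to small intestine was 0.908 (0.832 to 0.993) in the first pair and 1.71 (1.29 to 2.30) in the second, so the protocols gave opposite directions. With at most 1 color mismatch the first interval included 1.

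Ptgs1 reads of the rRNA-depleted libraries often shared a start point. The 66 and 193 reads began at 41 and 104 start points, 1.61 and 1.86 reads each, against 1.15 and 1.22 in the cDNA fragmented libraries, and the fullest start points held 6 and 9 reads. Dclk1 had 1.67 reads per start point in rRNA-depleted small intestine. Over whole libraries, reads per start point were 3.06 (small intestine) and 3.23 (colon) by cDNA fragmentation and 2.60 in each rRNA-depleted library. These values were not matched for depth. In the same order of tissues, uniquely placed reads numbered 22484041 and 24798934 by cDNA fragmentation, against 2035386 and 3478387 after rRNA depletion. The whole-library values therefore do not rank the protocols. Counted by start points in place of reads, the rRNA-depleted Ptgs1 interval still lay above 1. Block 9, given above, held 122 and 133 cDNA fragmented reads and 11 and 31 rRNA-depleted reads from small intestine and colon. The last block, which holds the end of the coding part and the 3′ untranslated region, held 464, 504, 35 and 80 reads in the order of libraries used above. The shares of Ptgs1 reads downstream of the midpoint, 51.9%, 54.4%, 53.0% and 44.6%, were alike between the cDNA fragmented libraries and lay near the middle in all 4.

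Alox5 is 5-lipoxygenase, the first enzyme of leukotriene synthesis, also made by myeloid cells (ENSMUSG00000025701, chromosome 6, 116360089 to 116411196). It had 72 reads in cDNA fragmented small intestine and 157 in cDNA fragmented colon, or 1.13 RPKM (0.886 to 1.43) and 2.24 RPKM (1.90 to 2.62). Colon was 1.98-fold higher (1.49 to 2.65), above the shift of the median gene. Both sides of the midpoint leaned the same way, with ratios of 1.75 (1.08 to 2.89) upstream and 2.12 (1.48 to 3.07) downstream. After rRNA depletion 8 and 16 reads gave 1.39 and 1.63 RPKM and a ratio of 1.17 (0.473 to 3.16). This ratio was 2.34 on sense reads, 3.08 with at most 1 color mismatch, 0.804 by start points and 0.96 with size factors. Only 4 of the 8 reads from rRNA-depleted small intestine lay on the strand of the gene, against 16 of 16 in colon, so this level is uncertain. Block 6, given above, had 9, 11, 0 and 3 reads in the order of libraries used above.

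Alox5ap encodes the membrane protein that presents arachidonic acid to 5-lipoxygenase (ENSMUSG00000060063, chromosome 5, 150076634 to 150099623). It had 184 reads in cDNA fragmented small intestine and 335 in cDNA fragmented colon, or 9.58 RPKM (8.25 to 11.1) and 15.8 RPKM (14.2 to 17.6). Colon was 1.65-fold higher (1.37 to 1.99). With 6 and 11 rRNA-depleted reads the levels were 3.45 and 3.70 RPKM and the ratio 1.07 (0.364 to 3.53). Its rRNA-depleted level was 0.360 and 0.234 times its cDNA fragmented level in small intestine and colon, the lowest such values among the 9 genes. The gene is the shortest of the 10, with 854 exonic bases in 5 blocks, and the last block held 133 of 184 and 265 of 335 cDNA fragmented reads.

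Il25, the cytokine by which tuft cells signal to type 2 lymphoid cells (ENSMUSG00000040770, chromosome 14, 55551608 to 55554671), was barely seen. It had 0 reads in cDNA fragmented small intestine, with an upper limit of the interval of 0.167 RPKM, and 2 reads in cDNA fragmented colon, 0.0819 RPKM (0.00992 to 0.296). Both rRNA-depleted libraries had 0 reads, with upper limits of 1.84 RPKM (small intestine) and 1.08 RPKM (colon). Neither of the 2 reads lay in the coding part. A tissue difference was not detectable at this depth.

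Avil encodes advillin, an actin-bundling protein of the villin family that marks tuft cells and some sensory neurons (ENSMUSG00000025432, chromosome 10, 126437765 to 126458050). It had 92 and 150 cDNA fragmented reads in small intestine and colon, or 1.35 RPKM (1.09 to 1.65) and 1.99 RPKM (1.69 to 2.34), and colon was 1.48-fold higher (1.13 to 1.94). The rRNA-depleted libraries held 21 and 31 reads, or 3.40 RPKM (2.11 to 5.2) and 2.94 RPKM (2.0 to 4.17), a ratio of 0.864 (0.481 to 1.58). The cDNA fragmented interval included the ratio of the median gene, and the directions of the pairs differed with overlapping intervals. Avil shares 165 exonic bases with the neighbouring gene Tsfm, and without them the median and the counts of members were as before.

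Dclk1, a microtubule-binding kinase widely used to stain tuft cells and also made by neurons (ENSMUSG00000027797, chromosome 3, 55046448 to 55342990), had 165 reads in cDNA fragmented small intestine and 222 in cDNA fragmented colon. Over its 12995 exonic bases these were 0.565 RPKM (0.482 to 0.658) and 0.689 RPKM (0.601 to 0.786). After rRNA depletion 65 and 134 reads gave 2.46 RPKM (1.90 to 3.13) and 2.96 RPKM (2.48 to 3.51). The ratio was 1.22 (0.993 to 1.5) and 1.21 (0.891 to 1.65), and both intervals included 1 and the ratio of the median gene. Counted by start points in place of reads, both intervals lay above 1, whereas size factors turned the ratios to 0.952 and 0.990, and scaling to epithelial markers turned the cDNA fragmented one to 0.970. The rRNA-depleted level was 4.35 and 4.30 times the cDNA fragmented level in small intestine and colon, the highest such values among the 9 genes.

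Dclk1 has transcripts that end in 2 different blocks, and these blocks held most of its reads. Block 8 (chr3:55270495-55275239) ends an annotated transcript that carries the doublecortin part and stops before the kinase, and block 20 (chr3:55337492-55342990) ends the transcripts with the kinase. Together they make up 78.8% of the exonic bases and held 85.5%, 88.3%, 83.1% and 79.9% of the reads in the order of libraries used above. Block 8 held 53 of 141 reads of both blocks in cDNA fragmented small intestine, 37.6% (30.0% to 45.8%), and 47 of 196 in cDNA fragmented colon, 24.0% (18.5% to 30.4%). The Wilson intervals overlapped narrowly. In the rRNA-depleted libraries the shares were 19 of 54, 35.2% (23.8% to 48.5%), and 35 of 107, 32.7% (24.6% to 42.1%), and did not separate the tissues. The first exon of the short kinase transcripts, block 6, had 1, 2, 0 and 0 reads, too few to say how much of the gene began there. On the coding bases alone, 27 and 28 cDNA fragmented reads gave a log2 ratio of -0.09.

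**Figure D3:**
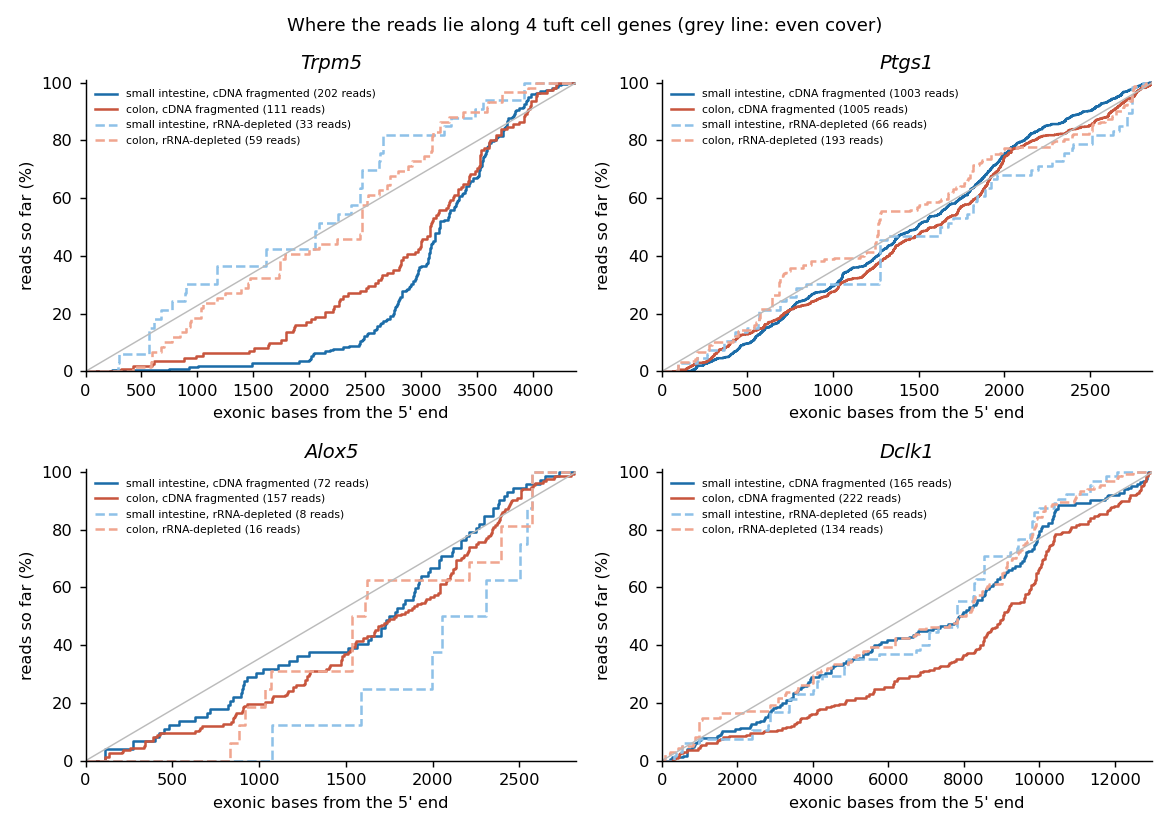
Share of reads, in percent, reached along the exonic bases from the 5′ end for Trpm5, Ptgs1, Alox5 and Dclk1; solid lines are cDNA fragmented and dashed lines rRNA-depleted libraries, and the grey line is even cover. The cDNA fragmented Trpm5 lines run below the grey line, most in small intestine with 92.6% of reads downstream of the midpoint.

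Reads across exon-exon junctions were rare, since they made up 0.754% to 0.822% of uniquely placed reads in the libraries. The tuft cell genes had 33 such reads over the 4 libraries, of which 8 (24.2%) joined neighbouring blocks, against 31.6% over all genes. Adding them changed no count of members past 2-fold. For Dclk1, 4 of 5 junction reads joined neighbouring blocks, and for Trpm5 neither of 2 did.

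Other genes of the same cells and pathways did not move as a block. Among 8 genes of the taste cascade, 6 had enough cDNA fragmented reads; 2 were at least 2-fold higher in colon (27.3% of all genes), none in small intestine (9.9%), and the median log2 ratio was 0.77 beside 0.41 for all genes. Gnat3, the taste G protein alpha subunit, was 3.99-fold higher in colon (1.47 to 13.5) on 5 and 22 reads, and Itpr3, the calcium release channel of the endoplasmic reticulum, was 2.58-fold higher (2.21 to 3.0). Itpr3 had 405 and 734 reads and a ratio of 1.06 (0.938 to 1.2) in the rRNA-depleted pair. Rgs13, a regulator of G protein signalling, was on the side of Trpm5, with 346 and 210 reads and a level 1.82-fold higher in small intestine (1.53 to 2.17). In the rRNA-depleted pair Rgs13 had 15 and 40 reads and a colon to small intestine ratio of 1.56 (0.843 to 3.04). Of 4 cascade genes tested in the rRNA-depleted pair, 1 was at least 2-fold higher in small intestine (12.8% of all genes). This was Plcb2, the phospholipase of the cascade, 2.11-fold higher in small intestine (1.06 to 4.26) on 21 and 17 reads. None was 2-fold higher in colon (29.0%), and the median log2 ratio was -0.01 beside 0.42 for all genes. By cDNA fragmentation Plcb2 had 25 and 33 reads and a colon to small intestine ratio of 1.197 (0.69 to 2.099). Itpr3 and Tas1r3 share exonic bases with other genes, so their values are less certain.

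Among 14 further tuft cell markers with cDNA fragmented reads, 2 were at least 2-fold higher in small intestine and 5 in colon, beside 9.9% and 27.3% of all genes, with a median log2 ratio of 0.16. The extremes were Ptprc, the pan-leukocyte antigen Cd45, 4.17-fold higher in small intestine (3.81 to 4.56), and Cd300lf, an inhibitory myeloid receptor, 4.01-fold higher in colon (3.12 to 5.23). Cd24a, a surface glycoprotein of many epithelial cells, was 2.01-fold higher in colon (1.93 to 2.08). In the rRNA-depleted pair 11 had enough reads, of which 1 was 2-fold higher in small intestine and 4 in colon, beside 12.8% and 29.0%, with a median log2 ratio of 0.07. Cd24a was there 5.2-fold higher in colon (4.66 to 5.82), and Ptprc 1.75-fold higher in small intestine (1.35 to 2.27). Cd300lf had 2 and 1 reads in that pair, too few for a comparison.

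The eicosanoid genes beside Ptgs1, Alox5 and Alox5ap went both ways. Of 12, 4 were at least 2-fold higher in small intestine and 1 in colon by cDNA fragmentation, beside 9.9% and 27.3% of all genes, with a median log2 ratio of -0.24. The counts in the rRNA-depleted pair were 2 and 2 of 10, beside 12.8% and 29.0%, with a median of -0.11. Lta4h, which makes leukotriene B4, was 2.90-fold higher in small intestine (2.78 to 3.02) by cDNA fragmentation and 1.85-fold higher (1.57 to 2.19) in the rRNA-depleted pair. Ltb4r1, the receptor of leukotriene B4, was 7.28-fold higher in small intestine (2.82 to 23.9) on 33 and 5 cDNA fragmented reads. Pla2g4a, the phospholipase that frees arachidonic acid, was on the side of colon, 2.10-fold (1.93 to 2.27) and 5.47-fold (3.64 to 8.54) in the 2 pairs. Hpgds, the prostaglandin D2 synthase of tuft and mast cells, had ratios of 1.32 (1.12 to 1.55) and 1.44 (0.773 to 2.83), close to the median gene.

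Of the type 2 circuit in which Il25 acts, Il13 was at 0 reads in all 4 libraries, and Il4 had 1 read in each cDNA fragmented library and none in the others. Il33, an alarmin, was 4.16-fold higher in small intestine (3.61 to 4.81) by cDNA fragmentation and 2.34-fold higher (1.42 to 3.87) in the rRNA-depleted pair. Retnlb, a goblet cell product, had 4 and 4095 cDNA fragmented reads, 928-fold higher in colon (362 to 3408). With 0 and 237 reads in the rRNA-depleted pair, Retnlb was 46.2-fold higher in colon with the 0 entered as 3 reads. The lower end of its counting interval was 37.3-fold. Il13ra1, a subunit of the Il13 receptor, was 2.29-fold higher in small intestine (2.14 to 2.45) in the first pair and 1.51-fold higher in colon (1.32 to 1.72) in the second, so its direction turned with the protocol. Of the 10 genes 7 had enough cDNA fragmented reads, and of these 3 were at least 2-fold higher in small intestine and 2 in colon, beside 9.9% and 27.3% of all genes. In the rRNA-depleted pair 5 had enough reads, with 1 in each direction, beside 12.8% and 29.0%.

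**Figure D4:**
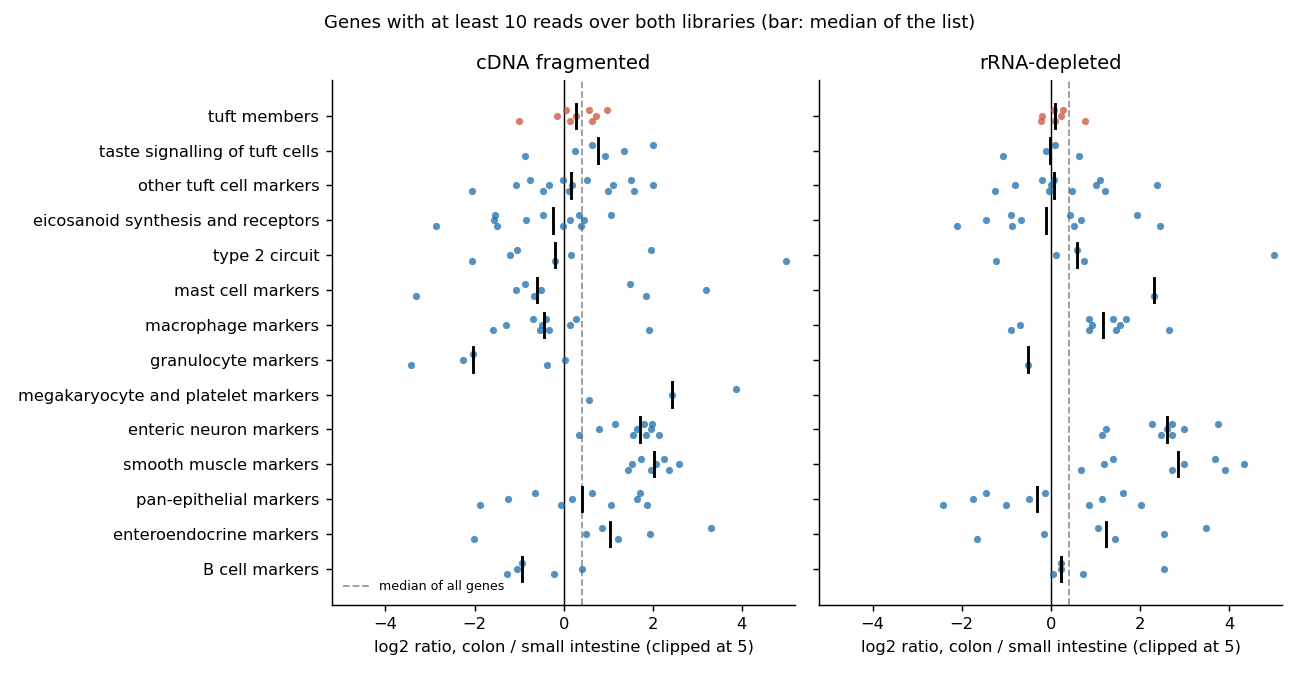
Log2 ratio (colon over small intestine) of each gene with at least 10 reads over both libraries, by list, in the cDNA fragmented (left) and rRNA-depleted (right) pair; black bars are list medians and dashed lines the median of all genes. The tuft cell genes (red) had medians of 0.29 and 0.10, while smooth muscle and enteric neuron markers lay toward colon in both.

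Markers of other cells of the gut wall moved between the libraries too. All 8 smooth muscle markers had intervals on the side of colon in both pairs, as did 52.3% of all genes by cDNA fragmentation and 40.9% in the rRNA-depleted pair. Their summed level was 307 and 1281 RPKM in cDNA fragmented small intestine and colon, and 252 and 2444 RPKM in the rRNA-depleted pair. Enteric neuron markers with enough reads had such intervals in 10 of 10 and 9 of 9 cases, beside the same 52.3% and 40.9%, with sums of 18.5 and 51.1 RPKM, and 13.6 and 68.3 RPKM. Dclk1 and Avil, which neurons also make, were far less shifted, and the part of neurons in them was not tested. The sum of 10 macrophage markers was 182 and 220 RPKM by cDNA fragmentation with a median log2 ratio of -0.43, and 77.7 and 159 RPKM with a median of 1.16 in the rRNA-depleted pair. Medians of other lists also turned sign between the pairs, from -0.93 to 0.23 for B cell markers and from -0.19 to 0.59 for the type 2 circuit.

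Mast cells and granulocytes use Alox5, Alox5ap, Ptgs1 and Hpgds as well. Of 10 mast cell markers the sum was 9.34 RPKM in cDNA fragmented small intestine and 19.1 RPKM in colon, most of it from Kit, which interstitial cells of Cajal also make and which was 2.79-fold higher in colon (2.55 to 3.07). Cma1, a mast cell chymase, had 7 and 71 reads and was 9.20-fold higher in colon (4.24 to 23.7), while Fcer1a, a chain of the IgE receptor, had 9 and 1 reads. The median log2 ratio of the 8 mast cell markers with enough cDNA fragmented reads was -0.59. In the rRNA-depleted pair the mast cell sums were 8.32 and 34.0 RPKM. Only Kit had enough reads there, 4.99-fold higher in colon (3.88 to 6.52), and Cma1 was at 0 reads in both libraries. Granulocyte markers summed to 8.16 and 4.53 RPKM in the rRNA-depleted pair, where 1 of them had enough reads. By cDNA fragmentation they summed to 19.1 and 5.47 RPKM, most of it from Prg2, an eosinophil granule protein, with 177 and 48 reads and Retnlg with 95 and 22. Cxcr2, a chemokine receptor of neutrophils, had 59 and 67 reads and a ratio of 1.03 (0.715 to 1.49), and Elane and Epx were at 0 reads in both libraries. B cell markers had sums of 58.7 and 32.3 RPKM by cDNA fragmentation, and 18.6 and 27.2 RPKM in the rRNA-depleted pair. Of the epithelium as a whole, 10 markers had a median log2 ratio of 0.41 by cDNA fragmentation and -0.31 in the rRNA-depleted pair, with sums of 2545 and 2963 RPKM, and 4392 and 6298 RPKM. The part of any of these cells in the reads of the tuft cell genes was not tested. The 6 enteroendocrine markers, of another rare epithelial lineage, had medians of 1.03 and 1.25, beside 0.41 and 0.42 for all genes. They went both ways by cDNA fragmentation, with 1 at least 2-fold higher in small intestine and 3 in colon, beside 9.9% and 27.3% of all genes. In the rRNA-depleted pair these counts were 1 and 4, beside 12.8% and 29.0%. Enteroendocrine sums were 49.5 and 244 RPKM, and 73.0 and 184 RPKM.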

How the data were processed

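Mouse small intestine and colon were sequenced as color reads, in which each color encodes a pair of neighbouring bases. Per the deposited files, the authors had matched 35 colors per read to RefSeq exons of mm9 and to exon-exon junctions with up to 3 mismatches and had kept uniquely placed reads. What they deposited is the place, strand and number of mismatches of each read, without normalization. The study's methods name BioScope for matching reads to the mm9 genome; for the matches to exons and junctions used here the tool is not given in the sources used here. Total reads per library were taken from the authors' deposited reports. For the cDNA fragmented libraries, 77504263 (small intestine) and 83302412 (colon), they equal the totals in the paper. Uniquely placed reads counted here are fewer than the uniquely mapped reads in the paper, which were matched to the whole genome.

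Each exon block was assigned to a gene of GENCODE M1, on the same build. Reads were counted in the block that holds their start, with 3 bases of tolerance, and RPKM was calculated. Ratios carry exact conditional binomial intervals, levels exact Poisson intervals and shares Wilson intervals, at 95%. A count of 0 enters a ratio at 3 reads, and ratios were read for genes with at least 10 reads over both libraries. Protocols were never pooled. On the strand of the gene lay 48.3% and 48.2% of cDNA fragmented reads, which keep no strand, and 98.4% of the rRNA-depleted reads of each tissue.

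The 10 genes and all lists were chosen with earlier results of these data known. Named were all 10 genes and, of each other list, genes with the most reads (up to 3) or the largest ratio in a direction. Genes outside that rule (Il4, Il13, Elane, Epx and the sex-linked and acinar genes) were chosen after their values were seen. Sh2d6, Kctd12 and Ly6g had no match and are not analysed here, and 1 further gene of the lists is not reported here. Alternatives were median-of-ratios size factors, scaling to epithelial markers, at most 1 mismatch, start points, read minima of 20 and 1, thinning, junction reads, unshared bases, sense reads, a penalty of 0.1 and, chosen after seeing the data, coding bases only. The ratios, their intervals and the 2-fold calls were tested on simulated counts, whereas the placing of reads in blocks and genes was not. Tools were Python 3.11.15, numpy 2.4.6, pandas 2.3.3, scipy 1.17.1 and pysam 0.24.0.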

Additional observations from a re-analysis of the deposited data

Results flagged for a closer look

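Ptgs1 was picked out because its tissue ratio turned direction between the protocols with both counting intervals off 1. The ratio of colon to small intestine was 0.908 (0.832 to 0.993) in the cDNA fragmented pair and 1.71 (1.29 to 2.30) in the rRNA-depleted pair. With 1 library per tissue and protocol the difference was not tested.

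On the strand opposite to Alox5, 4 reads were found in rRNA-depleted small intestine, above the floor of 3 reads that was set for a count of 0. Among junction reads, which entered no ratio, Ptgs1 had 9, Alox5ap 4 and Avil 4 in cDNA fragmented colon. Of these only 3 of the 9 Ptgs1 reads joined neighbouring exon blocks, and none of the others did.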

How the results depend on the processing

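Of 64 recomputed medians and counts of the tuft cell genes, 58 were scored as unchanged. A count was scored so within 1.5 times its main value. A median was scored so between the median lower and the median upper limit of the single-gene intervals. These limits are wide for a median, and medians that changed sign lay within them. The count of 1 gene 2-fold higher in small intestine by cDNA fragmentation (Trpm5) became 0 with start points in place of reads, with the deeper library thinned to the shallower and with coding bases only. On coding bases 1 gene, Gfi1b, passed 2-fold for colon in that pair, on 5 (small intestine) and 13 (colon) reads. The share of all genes was not computed on coding bases. In the rRNA-depleted pair 1 gene, Alox5, passed 2-fold for colon with at most 1 color mismatch and with sense reads only, beside 30.6% and 30.2% of all genes. Trpm5 remained higher in small intestine by cDNA fragmentation under every alternative, between log2 ratios of -1.36 and -0.88, and Ptgs1 kept its opposite directions, between -0.50 and -0.08 and between 0.49 and 0.95. Size factors turned the sign of both medians (-0.07 and -0.18), and scaling to epithelial markers that of the cDNA fragmented one (-0.04) but not of the rRNA-depleted one (0.26). Of 130 recomputed ratios of single genes, 9 left their counting interval, all by cDNA fragmentation, and no gene whose interval was off 1 changed direction. The causes were not tested. A penalty of 0.1 called no member. In the rRNA-depleted pair the intervals of Pou2f3, Alox5 and Alox5ap spanned 2-fold in both directions at their depth. A fit of tissue over both pairs with protocol as a block was not run.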
